A study of Mus musculus with 6 samples.

Results

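The Wnt ligands, the R-spondins and the receptors that bind Wnts at the cell surface were followed in RNA-seq of newborn mouse parietal bone, a flat bone of the skull vault. The members were taken by name. They are the 19 *Wnt* genes, the 4 R-spondin genes *Rspo1* to *Rspo4*, the 10 Frizzled genes *Fzd1* to *Fzd10* and 5 co-receptor genes (*Lrp5*, *Lrp6*, *Ror1*, *Ror2* and *Ryk*), which makes 38 of the 44556 genes in the count tables.

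Wnts are secreted, lipid-modified proteins that bind a Frizzled receptor on the target cell. With LRP5 or LRP6 as the co-receptor this stabilises β-catenin, which drives osteoblast formation and bone mass, whereas ROR1, ROR2 and RYK carry mainly β-catenin-independent signals for cell shape and movement. R-spondins are secreted helpers that keep Frizzled and LRP proteins on the cell surface by blocking the ligases that remove them.

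Parietal bone was collected from newborn C57BL/6 littermates of 2 genotypes, OsxCre (n = 3 libraries) and OsxCre;Stat3fl/fl (n = 3 libraries). Both genotypes carry the Cre recombinase transgene under the promoter of *Osx* (*Sp7*), a transcription factor of osteoblast precursors, and in the second one both *Stat3* alleles have loxP sites, so that *Stat3* is to be deleted mainly in pre-osteoblasts and their descendants. The study asked how this deletion changed gene expression, and the same question was put here to the Wnt genes. The sources give 3 mice per genotype but do not tie each library to an animal, so p-values measure the spread between these libraries. Whole bone holds many cell types, and in such bulk samples fewer cells of a type and less RNA per cell cannot be told apart.

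The libraries held between 8193651 and 12080044 counts, and the mean total of the libraries labelled OsxCre;Stat3fl/fl was 0.794 of the OsxCre mean. *Stat3* itself was not lower (134 to 155 CPM, counts scaled to library size, over the 6 libraries, log2 fold change 0.12, adjusted p = 0.442 from edgeR). That count covers the whole gene, undeleted exons and other cell types included, so it does not check the labels. All 6 libraries held *Xist*, with 7333 to 12392 counts, and at most 1 count of the Y-linked genes examined, whereas the study describes male newborns. All 8 osteoblast markers were detected in every group, with a summed level of 12500 to 16800 CPM in OsxCre and 11000 to 14000 CPM in the libraries labelled OsxCre;Stat3fl/fl. The 8 skeletal muscle markers summed to 26400 to 28500 CPM and 31200 to 46400 CPM, and these ranges do not overlap. The 6 markers of red blood cell precursors also did not overlap, with 2940 to 4820 CPM in OsxCre and 1590 to 2810 CPM in the other genotype, whereas chondrocyte markers (1820 to 3170 and 2790 to 3560 CPM) did. Among the muscle genes the embryonic myosin gene *Myh3* was higher (log2 fold change 1.71, adjusted p = 0.0204) and the fast myosin gene *Myh4* lower (-3.61, adjusted p = 3.87e-05) in edgeR's test.

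A member counted as expressed when it passed edgeR's filter on low counts, which asks for about 10 counts in at least 3 libraries. By that rule 28 of the 38 members were expressed: 11 of 19 ligands, 3 of 4 R-spondins, all 10 Frizzleds and 4 of 5 co-receptors. Levels of different genes are compared below in CPM per kilobase of exon, scaled by TMM, whereas a gene's own level in the 2 genotypes is compared in CPM. Summed by class, receptors lay above ligands on the scale per kilobase, although the classes differ in size. Gene by gene the classes mixed, since the mean of *Wnt4* (7.9) lay above those of *Ror2* (5.88) and *Fzd8* (5.75). The 10 Frizzleds summed to between 84.7 and 106 CPM per kilobase in a library, the co-receptors to between 55.2 and 66.4, all 19 ligands to between 37.8 and 44.5 and the R-spondins to between 10.6 and 12.4.

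**Figure D1:**
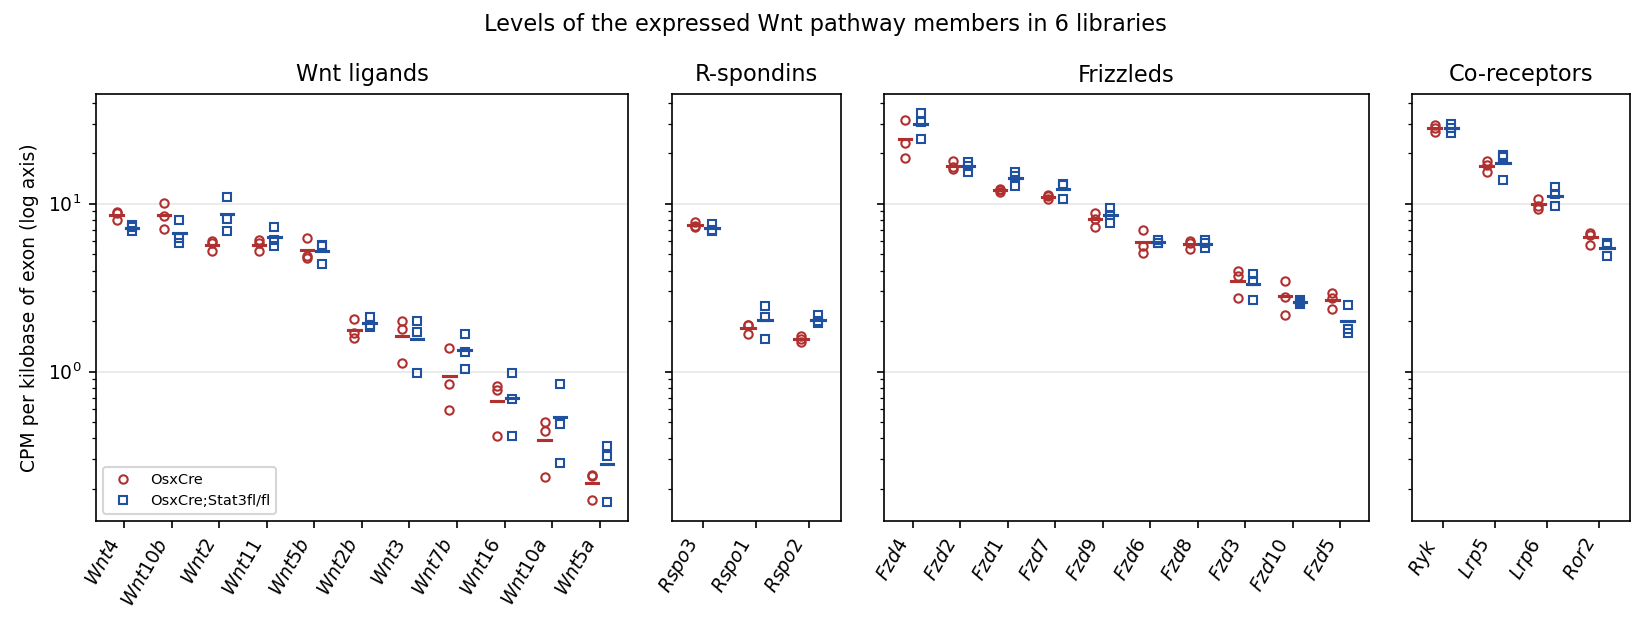
Level of each of the 28 expressed members in CPM per kilobase of exon (vertical axis, logarithmic) in the 3 OsxCre libraries (circles) and the 3 libraries labelled OsxCre;Stat3fl/fl (squares), with a short line at each group mean. *Ryk* and *Fzd4* stand at the top with means of 28.1 and 27.1, and the ligands fall into an upper group of 5 and a lower group of 6.

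Among the ligands, 5 genes lay close together at the top. Over the 6 libraries *Wnt4*, which is known from kidney and reproductive tract development, averaged 7.9 CPM per kilobase. *Wnt10b*, known to favour osteoblasts over fat cells, averaged 7.61, *Wnt2* 7.17, *Wnt11*, a ligand of β-catenin-independent signalling, 6, and *Wnt5b* 5.26. Each overlapped its neighbour in this order, so the 5 cannot be ranked beyond their spread. A gap followed, since the lowest *Wnt5b* library (4.38) lay above the highest library of the next ligand, *Wnt2b* (2.12). Below it came *Wnt2b* at a mean of 1.86 CPM per kilobase, *Wnt3* at 1.6, *Wnt7b* at 1.14, *Wnt16* at 0.681, *Wnt10a* at 0.465 and *Wnt5a* at 0.249, and here too each neighbour pair overlapped. *Wnt16*, which is known to protect cortical bone, and *Wnt5a*, the best studied ligand of ROR2, were thus among the lowest of the expressed ligands on this scale.

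*Rspo3* was the leading R-spondin and held 68.1% of the summed R-spondin level per kilobase in OsxCre and 62.2% in the libraries labelled OsxCre;Stat3fl/fl. Its lowest library had 6.85 CPM per kilobase and the highest *Rspo1* library 2.46, so they did not overlap. *Rspo1* (mean 1.93) and *Rspo2* (mean 1.8), of which the second is known for its part in limb and craniofacial development, overlapped.

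All 10 Frizzleds were expressed. *Fzd4*, the receptor for norrin as well as Wnts and best known from blood vessels, led with 27.1 CPM per kilobase, followed by *Fzd2* at 16.8, *Fzd1* at 13.2, *Fzd7* at 11.6 and *Fzd9*, a receptor with a known part in bone formation, at 8.3. *Fzd6*, known from hair and planar cell polarity, averaged 5.92, *Fzd8* 5.75, *Fzd3* 3.4, *Fzd10* 2.7 and *Fzd5* 2.34. *Fzd4* lay above *Fzd2* in all 6 libraries, with its lowest library at 18.7 and the highest *Fzd2* library at 17.9. The neighbour pairs *Fzd1* and *Fzd7*, *Fzd6* and *Fzd8*, *Fzd3* and *Fzd10*, and *Fzd10* and *Fzd5* overlapped.

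The 4 expressed co-receptors were clearly ordered, and no neighbours overlapped. *Ryk*, an atypical receptor kinase, averaged 28.1 CPM per kilobase and made up 46% of the co-receptor sum in OsxCre and 45.2% in the libraries labelled OsxCre;Stat3fl/fl. *Lrp5*, whose human counterpart sets bone mass, averaged 17.2, its close relative *Lrp6* 10.5 and the kinase-like *Ror2*, a gene of skeletal patterning, 5.88. When the longest transcript replaced the union of exons, *Wnt10b* and *Wnt4*, *Ror2* and *Fzd6*, and *Wnt5b* and *Fzd8* exchanged places.

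The genotype comparison gave no member past the adjusted threshold. edgeR's quasi-likelihood test, two-sided and adjusted by Benjamini-Hochberg over 15600 genes, called 0 of 28 members lower and 0 higher at an adjusted p under 0.05, where 0.481% of all genes tested were lower and 0.776% higher. At an unadjusted p under 0.05, 2 members were lower (*Wnt4* and *Fzd5*) and 2 higher (*Wnt2* and *Fzd1*), beside 8.34% and 8.03% of all genes. DESeq2's Wald test also called 0 members after adjustment (all genes 1.59% lower and 2.04% higher), with 1 lower and 2 higher unadjusted (all genes 6.28% and 6.15%). limma-voom called 0 after adjustment (all genes 0.397% and 0.756%), with 2 lower and 3 higher unadjusted (all genes 8.29% and 8.08%). The 2 lower members at the unadjusted p became 0 without OsxCre library 2 (all genes 1041 of 15830 lower). They also became 0 without OsxCre;Stat3fl/fl library 2 (all genes 1277 of 16210). The 2 higher became 1 without OsxCre;Stat3fl/fl library 2 (all genes 1188 of 16210 higher) or 3 (999 of 16045). Without library 1 of that genotype 4 members were higher (all genes 1336 of 16081). The 3 libraries of each genotype did not overlap for 1 member that was lower (*Wnt4*) and 3 that were higher (*Wnt2*, *Fzd1* and *Rspo2*), against 12.2% and 10.8% of all genes tested. By edgeR with all 6 libraries, none of these counts of members, at the unadjusted p and without overlap, exceeded what the same share of 28 genes gives.

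The median log2 fold change of the 28 members was 0.05, against 0 for all genes tested, and the members ran from -0.43 to 0.61. By class it was 0.14 for the ligands, 0.17 for the R-spondins, 0.01 for the Frizzleds and 0.03 for the co-receptors. The 95% interval lay within 0.5 of 0 on the log2 scale for 14 of 28 members (7170 of 15600 genes) and within 1 for 24 (12435 of all genes). The members whose interval reached past 1 in either direction were the ligands *Wnt2*, *Wnt7b*, *Wnt10a* and *Wnt5a*, of which the last 3 were among the lowest expressed.

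**Figure D2:**
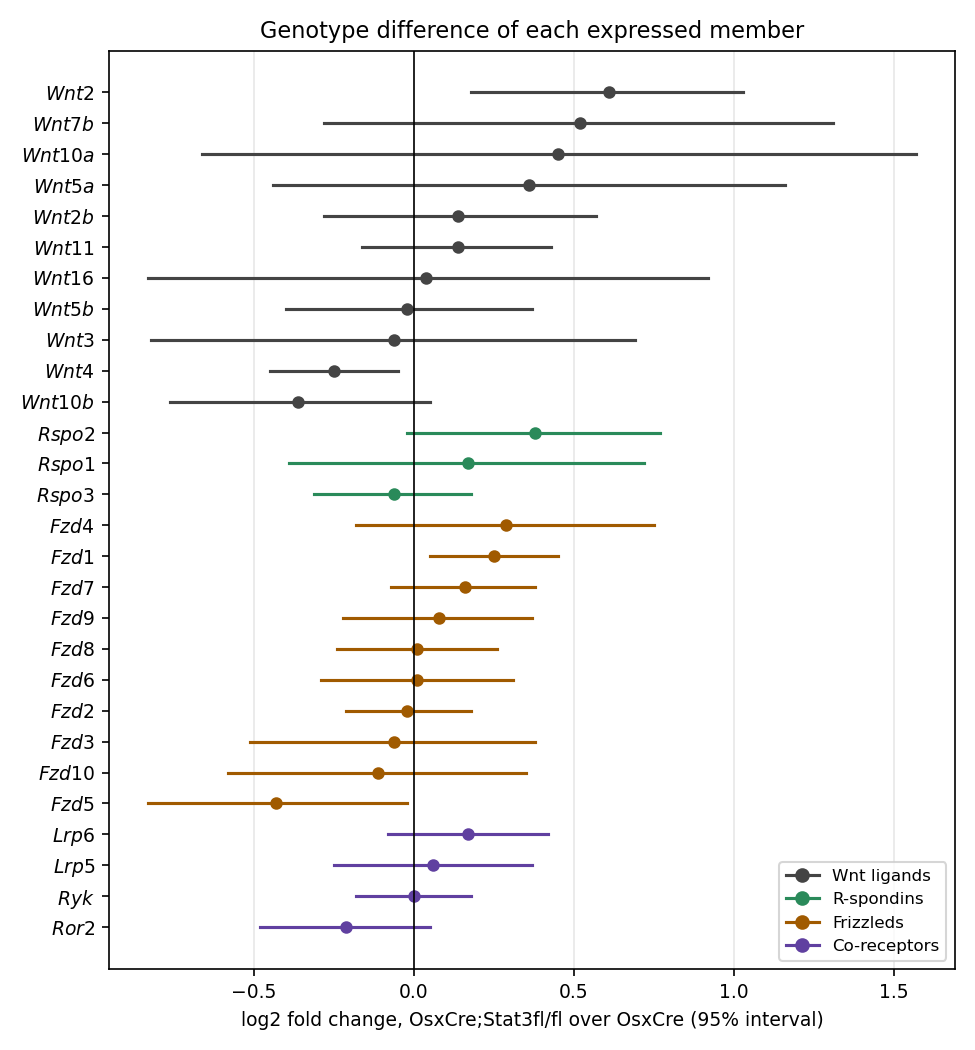
Log2 fold change of the libraries labelled OsxCre;Stat3fl/fl over OsxCre for the 28 expressed members (points) with the 95% interval from edgeR's quasi-likelihood fit (lines), coloured by class. The intervals of *Wnt2*, *Fzd1*, *Wnt4* and *Fzd5* leave out 0 before adjustment, and those of the weakly expressed ligands are the widest.

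*Wnt2*, which is known from lung and placental vessel development, had the largest fold change of the 28 members tested. Its level was 13.1, 13.5 and 11.8 CPM in OsxCre libraries 1, 2 and 3, and 18.2, 24.8 and 15.5 CPM in OsxCre;Stat3fl/fl libraries 1, 2 and 3. Every library of the second genotype lay above every OsxCre library, but they also spread more widely. The means were 12.8 ± 0.906 and 19.5 ± 4.79 CPM (SD, n = 3), a log2 fold change of 0.61 (standard error 0.18, 95% interval 0.18 to 1.03), which did not pass the adjustment (unadjusted p = 0.011, adjusted p = 0.162 in edgeR). An exact two-sided permutation test of 3 libraries against 3 cannot go below p = 0.1, which was its value here. Without OsxCre;Stat3fl/fl library 2 the log2 fold change was 0.40.

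The order of *Wnt2* in the libraries labelled OsxCre;Stat3fl/fl was that of the summed skeletal muscle markers, which stood at 36900, 46400 and 31200 CPM in libraries 1, 2 and 3 of that genotype. In OsxCre these sums were 27300, 26400 and 28500 CPM, and the order of *Wnt2* was the reverse of theirs. Of the 8 muscle genes 7 had a log2 fold change above 0, with a median of 0.54, and none was at 0 counts in all libraries. Their part in the *Wnt2* difference was not tested.

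*Wnt4* was the highest ligand by mean level and had the only ligand values that were lower without overlap among those tested. It stood at 33.7, 37.3 and 37.1 CPM in OsxCre and at 30.7, 28.7 and 31.4 CPM in the libraries labelled OsxCre;Stat3fl/fl. The means were 36 ± 2.01 and 30.3 ± 1.37 CPM (SD, n = 3), with a log2 fold change of -0.25 (standard error 0.09, 95% interval -0.45 to -0.05, unadjusted p = 0.0217, adjusted p = 0.213 in edgeR). The exact permutation test again gave its smallest two-sided value, p = 0.1, as it must for any groups without overlap.

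*Wnt10b* pointed the same way with more spread. OsxCre libraries had 19.8, 23.5 and 16.6 CPM and the libraries labelled OsxCre;Stat3fl/fl 13.5, 14.5 and 18.5 CPM, so library 3 of each genotype lay inside the other's range. The log2 fold change was -0.36 (standard error 0.18, 95% interval -0.76 to 0.05, adjusted p = 0.356 in edgeR, exact permutation p = 0.2, two-sided). It was -0.23 without OsxCre library 2, -0.48 without OsxCre library 3 and -0.51 without OsxCre;Stat3fl/fl library 3 (unadjusted p = 0.245, 0.0295 and 0.028 in edgeR). *Wnt4* and *Wnt10b* made up 20.9% and 20.7% of the summed ligand level per kilobase in OsxCre and 17.2% and 15.9% in the libraries labelled OsxCre;Stat3fl/fl, while *Wnt2* stood at 13.8% and 20.5%. The osteoblast markers had 7 of 8 log2 fold changes under 0, with a median of -0.22, of which *Ibsp*, the gene of bone sialoprotein, passed the test (-0.66, adjusted p = 0.0213), and their part in these values was not tested.

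The other expressed ligands did not pass the adjusted test either. The log2 fold change was 0.14 for *Wnt11* (95% interval -0.16 to 0.43) and -0.02 for *Wnt5b* (-0.40 to 0.37), both with narrow intervals for this class. It was 0.14 for *Wnt2b* (-0.28 to 0.57), -0.06 for *Wnt3* (-0.82 to 0.69) and 0.04 for *Wnt16* (-0.83 to 0.92). For *Wnt7b*, *Wnt10a* and *Wnt5a* the values were 0.52 (-0.28 to 1.31), 0.45 (-0.66 to 1.57) and 0.36 (-0.44 to 1.16), so changes of either sign remain possible at this depth. *Wnt7b* was 0.90 without OsxCre library 2 (unadjusted p = 0.0225 in edgeR) and 0.27 without OsxCre library 3.

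Among the R-spondins, *Rspo2* had groups that did not overlap. It stood at 5.03, 5.44 and 5.19 CPM in OsxCre and at 6.47, 7.21 and 6.65 CPM in the libraries labelled OsxCre;Stat3fl/fl. The means were 5.22 ± 0.206 and 6.78 ± 0.389 CPM (SD, n = 3), from only 53 to 62 counts a library, with a log2 fold change of 0.38 (standard error 0.17, 95% interval -0.02 to 0.77, adjusted p = 0.326 in edgeR). The exact permutation p was 0.1, two-sided. The leading R-spondin, *Rspo3*, had 17.6, 17.4 and 18.5 CPM against 16.4, 18.1 and 16.7 CPM, a log2 fold change of -0.06 (-0.31 to 0.18, adjusted p = 0.825). *Rspo1* went from 3.52 ± 0.257 to 3.96 ± 0.873 CPM (SD, n = 3), with a log2 fold change of 0.17 (-0.39 to 0.72).

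**Figure D3:**
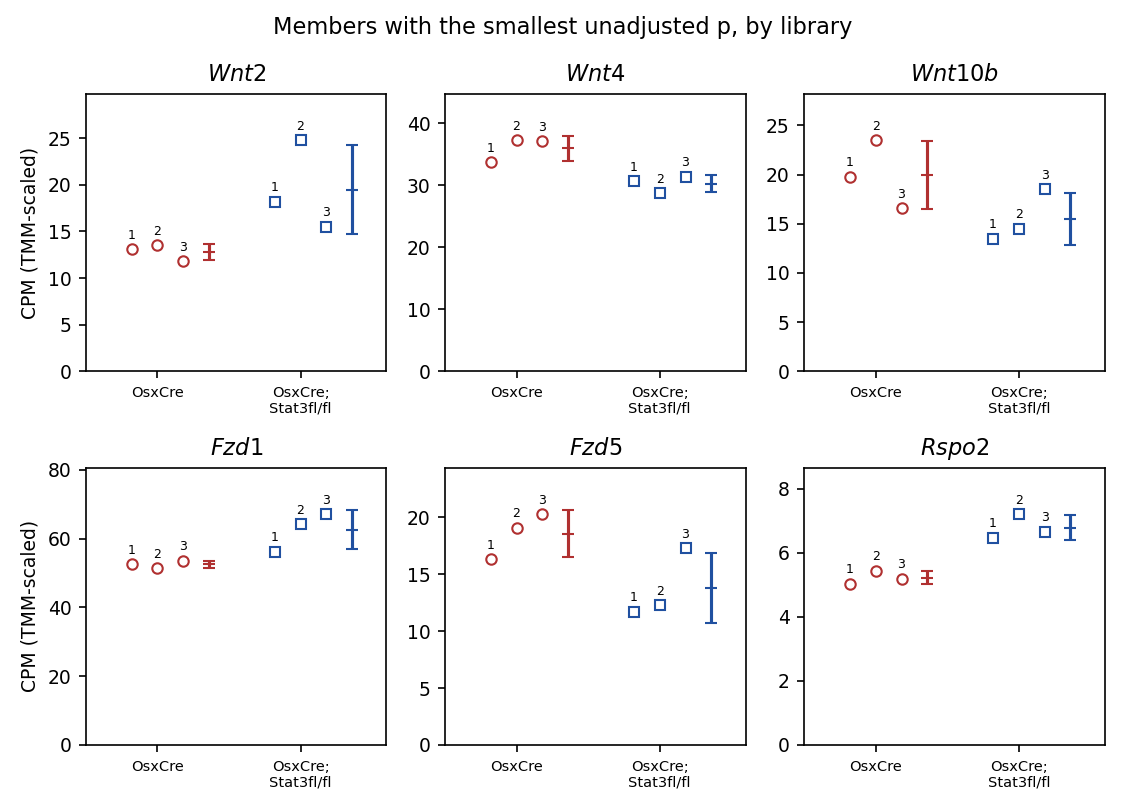
TMM-scaled CPM of the 6 members with the smallest unadjusted p in each library (numbers are the replicate numbers of the labels), with the mean and SD of 3 libraries beside each group. *Wnt2*, *Fzd1* and *Rspo2* lie higher and *Wnt4* lower in the libraries labelled OsxCre;Stat3fl/fl without overlap, while *Wnt10b* and *Fzd5* overlap.

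The Frizzleds with the smallest unadjusted p went in opposite directions. *Fzd1* stood at 52.6, 51.4 and 53.6 CPM in OsxCre and at 56.2, 64.3 and 67.2 CPM in the libraries labelled OsxCre;Stat3fl/fl, with no overlap. The means were 52.5 ± 1.08 and 62.6 ± 5.71 CPM (SD, n = 3) and the log2 fold change 0.25 (standard error 0.09, 95% interval 0.05 to 0.45, unadjusted p = 0.02, adjusted p = 0.205 in edgeR, exact permutation p = 0.1, two-sided). *Fzd5*, the lowest Frizzled per kilobase and a known β-catenin receptor of gut and eye, stood at 16.3, 19.1 and 20.3 CPM against 11.7, 12.3 and 17.3 CPM. OsxCre;Stat3fl/fl library 3 lay above the first OsxCre library. The means were 18.6 ± 2.02 and 13.8 ± 3.03 CPM (SD, n = 3), and the log2 fold change was -0.43 (standard error 0.17, 95% interval -0.83 to -0.02, unadjusted p = 0.0407, adjusted p = 0.279 in edgeR).

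*Fzd4* varied more between libraries than any other Frizzled with a high level. It stood at 84.8, 68.8 and 117 CPM in OsxCre and at 89.6, 127 and 113 CPM in the libraries labelled OsxCre;Stat3fl/fl, and the groups overlapped. The log2 fold change was 0.29 (95% interval -0.18 to 0.75, adjusted p = 0.53 in edgeR, exact permutation p = 0.3, two-sided). It was 0.12 without OsxCre library 2, 0.18 without OsxCre;Stat3fl/fl library 2 and 0.52 without OsxCre library 3 (adjusted p = 0.228 in edgeR). The 6 endothelial markers, all detected, summed to 652, 527 and 746 CPM in OsxCre and to 661, 777 and 727 CPM in the other genotype, so that OsxCre library 2 was lowest and OsxCre;Stat3fl/fl library 2 highest for both. All 6 endothelial genes had a log2 fold change above 0 (median 0.21) and none passed the adjusted test, and their part in the *Fzd4* values was not tested.

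**Figure D4:**
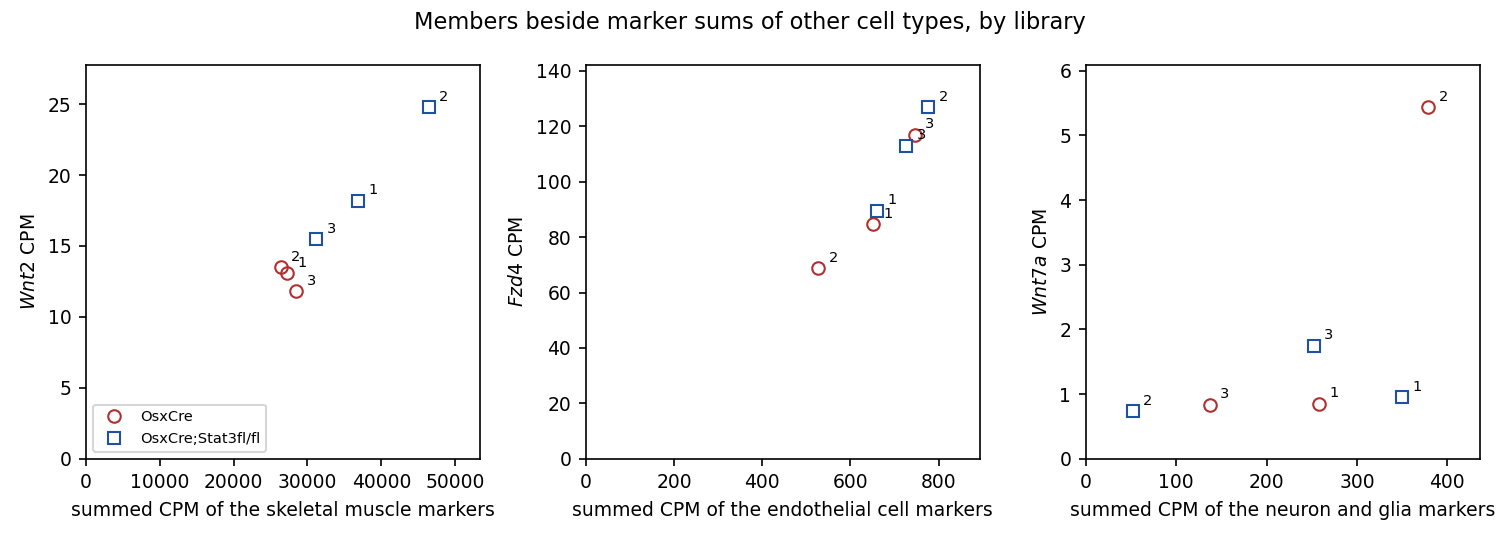
CPM of *Wnt2*, *Fzd4* and *Wnt7a* (vertical axes) against the summed CPM of skeletal muscle, endothelial and neuron and glia markers (horizontal axes) in each of the 6 libraries, with replicate numbers. The pairs were chosen after their values were seen. The highest library of each member is also the highest of its marker sum, while *Wnt7a* is low in another library with a similar neuron and glia sum.

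The other Frizzleds did not pass the adjusted test either. *Fzd2* had 65.1, 60 and 58.4 CPM in OsxCre and 64.7, 61 and 55.8 CPM in the libraries labelled OsxCre;Stat3fl/fl, a log2 fold change of -0.02 (95% interval -0.21 to 0.18). *Fzd8* and *Fzd6* were both at 0.01 (-0.24 to 0.26 and -0.29 to 0.31), *Fzd9* at 0.08 (-0.22 to 0.37) and *Fzd7* at 0.16 (-0.07 to 0.38). *Fzd3* and *Fzd10*, with fewer counts, were at -0.06 (-0.51 to 0.38) and -0.11 (-0.58 to 0.35).

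*Ryk* had 92.3, 96.1 and 87.2 CPM in OsxCre and 86.7, 97.1 and 91.9 CPM in the libraries labelled OsxCre;Stat3fl/fl. Both means were 91.9 CPM, and the interval of its log2 fold change of 0 ran from -0.18 to 0.18. The LRP co-receptors had wider intervals. *Lrp5* had 88.5, 80.1 and 92.6 CPM against 72.1, 101 and 98.4 CPM, a log2 fold change of 0.06 (-0.25 to 0.37), and *Lrp6* had 95.7, 91 and 106 CPM against 94.9, 112 and 122 CPM, a log2 fold change of 0.17 (-0.08 to 0.42). Without OsxCre;Stat3fl/fl library 1, *Lrp6* was 0.27 and *Fzd7* 0.25 (unadjusted p = 0.0249 and 0.0147, adjusted p = 0.242 and 0.204 in edgeR). Without OsxCre;Stat3fl/fl library 3, *Lrp6* was 0.09 and *Fzd7* 0.10 (unadjusted p = 0.443 and 0.379 in edgeR). For *Ror2* the means were 26.8 ± 2.34 and 23.1 ± 2.08 CPM (SD, n = 3), with a log2 fold change of -0.21 (-0.48 to 0.05, adjusted p = 0.404 in edgeR).

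The 10 members that were not tested had low counts in most libraries. *Wnt8a*, *Wnt8b* and *Wnt3a*, ligands of the early embryo and nervous system, had at most 4 counts in any library, near or under the floor of 3 counts. *Wnt1*, a midbrain ligand that also regulates bone mass, had 8, 4 and 1 counts in OsxCre and 1, 1 and 1 in the libraries labelled OsxCre;Stat3fl/fl. The summed ratio, scaled for depth, was 0.3 (95% interval 0.0548 to 1.09, counting error only). Such low counts give the reads assigned to a gene and do not show that it was silent in every cell. How far they bound its RNA in the tissue is not known, since the program and annotation behind the counts are not given.

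*Wnt9b*, a ligand of facial and kidney epithelium, had 4, 8 and 9 counts in OsxCre and 2, 1 and 2 in the other genotype. The groups did not overlap, and the ratio of the sums was 0.309 (95% interval 0.0911 to 0.843, counting error only). In a fit without the filter its unadjusted p was 0.0307 and its adjusted p 0.374. *Wnt6* had 8, 8 and 11 counts against 9, 15 and 9, which after scaling did not overlap either (ratio 1.59, 0.925 to 2.74). *Ror1* and *Rspo4*, at 0 to 8 counts a library, had ratios of 3.15 (1.24 to 9) and 2.6 (1.05 to 7.01), both with overlapping groups. *Wnt9a*, with 7 to 11 counts a library, had a ratio of 1.3 (0.749 to 2.25).

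*Wnt7a*, known from limb and nervous system patterning, owed most of its OsxCre counts to 1 library. It had 9, 55 and 10 counts in OsxCre and 8, 6 and 15 in the libraries labelled OsxCre;Stat3fl/fl. The 6 neuron and glia markers summed to 258, 379 and 137 CPM in OsxCre and to 350, 52 and 252 CPM in the other genotype, highest in the same library 2 of OsxCre. Their part in the *Wnt7a* counts was not tested. The related *Wnt7b* had 62 counts in that library and 39 and 31 in the other OsxCre libraries, against 62, 47 and 39.

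**Figure D5:**
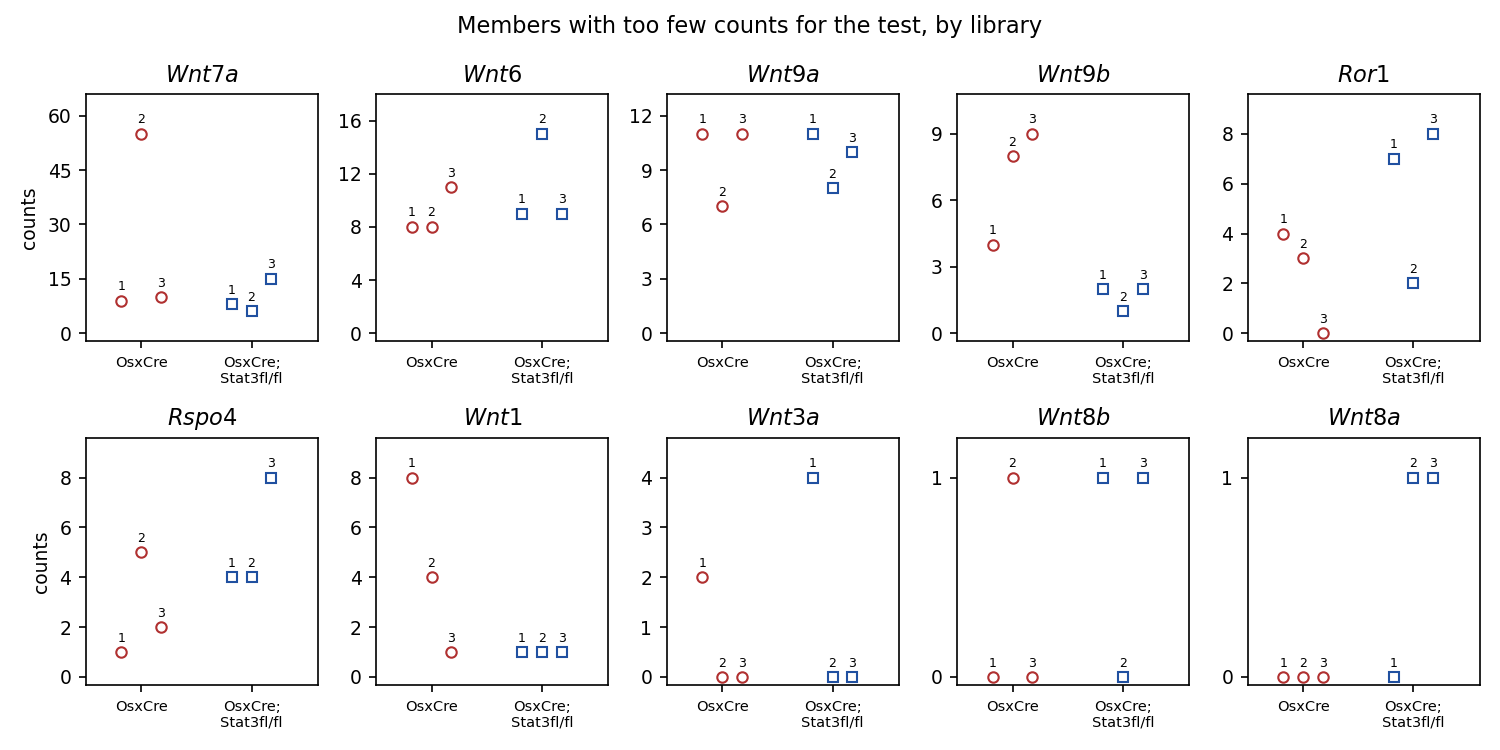
Counts of the 10 members that were not tested, in each library (numbers are replicate numbers). *Wnt7a* reaches 55 counts in OsxCre library 2 and at most 15 elsewhere, and *Wnt9b* has 4 to 9 counts in OsxCre and at most 2 in the libraries labelled OsxCre;Stat3fl/fl.

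Several ligand genes lie side by side in the genome (positions from RefSeq, GRCm38.p6). On chromosome 15, *Wnt10b* (98770712 to 98778206) and *Wnt1* (98789857 to 98793830) are 11.7 kb apart and had 1036 and 16 counts over the 6 libraries. On chromosome 1, *Wnt6* and *Wnt10a* are 6.7 kb apart and had 60 and 64 counts. On chromosome 11, *Wnt3a* and *Wnt9a* are 16.1 kb apart, with 6 and 58 counts. The annotations of *Wnt9b* (103727362 to 103775272) and *Wnt3* (103774175 to 103818021) overlap by 1.1 kb, and their 26 and 281 counts are uncertain where reads could fall to either gene. These 2 genes lie 2.79 and 2.83 Mb from *Stat3* on chromosome 11, and *Fzd2* lies 1.66 Mb from it.

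Promoter windows are shown for the 4 members with an unadjusted p under 0.05, since STAT3 binds DNA and the genotypes differ in it, together with the only window that held a STAT-type match. The windows are the 250 bases before each RefSeq start (GRCm38.p6), which 26 of the 38 members had, with 29 windows in all. The letters TTCNNNGAA, a palindrome bound by STAT proteins, and CTTTGAT with its reverse ATCAAAG, bound by the TCF/LEF partners of β-catenin, were searched on both strands, and the capitals below mark a match. For *Wnt2* and *Wnt4* the bases that an annotated transcript covers were left out, so that bases -250 to -141 and -250 to -147 from the start are shown.
*Wnt2*, a start inside the annotated gene (chr6:18030586-18030695, minus strand): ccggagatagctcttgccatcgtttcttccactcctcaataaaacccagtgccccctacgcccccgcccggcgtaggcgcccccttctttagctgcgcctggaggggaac
*Wnt4* (chr4:137277385-137277488, plus strand): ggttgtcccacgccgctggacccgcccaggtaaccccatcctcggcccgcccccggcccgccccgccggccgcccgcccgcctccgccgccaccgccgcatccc
*Fzd1* (chr5:4758217-4758466, minus strand): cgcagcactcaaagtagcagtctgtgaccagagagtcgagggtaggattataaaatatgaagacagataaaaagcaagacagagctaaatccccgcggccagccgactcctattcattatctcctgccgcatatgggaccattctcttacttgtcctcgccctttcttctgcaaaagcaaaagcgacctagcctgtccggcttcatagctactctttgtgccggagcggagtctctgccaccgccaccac
*Fzd5* (chr1:64737751-64738000, minus strand): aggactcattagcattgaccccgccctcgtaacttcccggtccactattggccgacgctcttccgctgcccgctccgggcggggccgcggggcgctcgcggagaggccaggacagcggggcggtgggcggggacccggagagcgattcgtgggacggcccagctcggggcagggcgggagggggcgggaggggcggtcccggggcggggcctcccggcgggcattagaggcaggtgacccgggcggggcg
*Wnt5b*, an alternative start inside the gene (chr6:119467212-119467461, minus strand): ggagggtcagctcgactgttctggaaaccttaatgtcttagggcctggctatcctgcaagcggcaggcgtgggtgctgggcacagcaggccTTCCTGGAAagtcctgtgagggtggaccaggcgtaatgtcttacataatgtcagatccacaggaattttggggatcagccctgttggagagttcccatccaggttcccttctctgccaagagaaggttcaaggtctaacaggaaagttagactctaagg

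None of the 4 whole windows of *Wnt2*, *Wnt4*, *Fzd1* and *Fzd5* held either motif. The STAT-type letters occurred in 1 of the 29 member windows (3.45%), in *Wnt5b* with the first base 159 bases before the start, and in 2306 of all 32851 promoter windows (7.02%). The TCF/LEF letters occurred in 2 member windows (6.9%), 1 each of *Wnt11* and *Wnt5b*, and in 3.21% of all windows, and in no member did the 2 motifs overlap. The GC content of the whole windows was 63.6% for *Wnt2*, 85.2% for *Wnt4*, 51.2% for *Fzd1* and 76.4% for *Fzd5*. A match is a string of letters and not a measured site, and none of these windows speaks of sites farther away.

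Other genes of the pathway were taken from a list. Of 38 listed genes for ligand release, R-spondin receptors, further cell-surface partners, the cytoplasmic relay and planar cell polarity, 32 were tested, 0 passed the adjusted test in either direction and the median log2 fold change was 0.04. At the unadjusted p, 1 was lower and 1 higher, both named here after their values were seen. *Dvl1*, an adaptor directly below Frizzled, went from 167 ± 4.96 to 140 ± 10.8 CPM (SD, n = 3, log2 fold change -0.25, adjusted p = 0.171 in edgeR), and *Ptk7*, a kinase-like co-receptor of planar cell polarity, from 129 ± 1.58 to 145 ± 2.69 CPM (log2 fold change 0.17, adjusted p = 0.244). All genes tested gave 8.34% and 8.03%. Groups did not overlap for 2 lower and 4 higher of these 32 genes, against 12.2% and 10.8% of all genes tested. The 6 genes with too few counts to test were *Rnf43*, *Ndp*, *Kremen2*, *Btrc*, *Daam1* and *Invs*. Means in OsxCre and OsxCre;Stat3fl/fl were 0.536 and 0.438 CPM for *Btrc*, 0.35 and 0.361 for *Daam1*, and 0.74 and 0.722 for *Invs*. *Ctnnb1*, the gene of β-catenin, had 111 ± 14.3 and 126 ± 13.3 CPM, and the ligand acyltransferase gene *Porcn* 20.4 ± 1.34 and 20.4 ± 2.78 CPM (SD, n = 3).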

How the data were processed

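RNA from parietal bone of newborn mice was sequenced by the study (Illumina TruSeq). The authors deposited 1 table of whole-number counts per gene symbol and library, with no normalization. The labels list HISAT2 and GRCm38, whereas the study's methods name TopHat, Cufflinks and mm9; the program and annotation that gave the counts are not given in the sources used here, nor is the use of strand. Labels gave the groups.

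Members were compared between genotypes in edgeR 4.0.16 (R 4.3.3), on the whole table, by filterByExpr (minimum count 10, minimum total count 15), TMM scaling, and the quasi-likelihood test over 15600 genes, two-sided, with Benjamini-Hochberg adjustment. No pair of libraries of 1 genotype was alike within sampling noise (chi-square 8.17 to 17.1 per degree of freedom). Single values were compared by an exact permutation test. Ratios of members too low to test have exact binomial intervals, which cover counting error only. Exon lengths came from GENCODE vM1 and matched all 38 members; positions and promoters came from RefSeq. Scripts were tested on simulated counts.

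Every member was named with its level; full statistics went to members with an unadjusted p under 0.05, without overlap between genotypes or among the 3 highest of a class. Other pathway genes were to be given as counts. The members and all gene lists were chosen with earlier results of these data known. Alternatives were 3 other scalings, no filter on low counts, DESeq2 1.42.0 (Wald test), limma-voom (limma 3.58.1), the replicate number as a block, and leaving out each of 6 libraries.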

Additional observations from a re-analysis of the deposited data

How the results depend on the processing

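Over 13 alternatives, 0 members passed the adjusted threshold, and the smallest adjusted p was 0.122 (*Wnt2*, DESeq2's Wald test). Over all genes these alternatives called from 1 lower and 0 higher with the replicate block, and 5 and 7 without OsxCre;Stat3fl/fl library 3, to 243 and 312 with the Wald test, so 0 members in the fits with few calls says little. At the unadjusted p, the 2 lower members became 4 without the filter, which added *Wnt10b* and *Wnt9b* (all genes 1566 of 28016 lower). That fit covered all 38 members. The Wald test gave 1 lower member (all genes 6.28%). Leaving out 1 library gave 0 to 3 lower members (0 without library 2 of either genotype) and 1 to 4 higher. *Wnt2* was among the higher in each of these 6 fits. Over all genes they called from 951 of 15869 to 1277 of 16210 lower and from 957 of 15830 to 1336 of 16081 higher. Of 364 fold changes, 332 kept their direction and 32 in 12 members did not. With library totals, which put the median of all genes at -0.05, *Fzd6* was -0.03, *Fzd8* -0.04, *Ryk* -0.05 and *Wnt16* -0.01. *Ryk* was 0 with the upper quartile, -0.01 without the filter and 0 with the Wald test. Leaving out 1 library gave -0.27 to 0.07 for *Fzd10*, -0.07 to 0.04 for *Fzd2*, -0.21 to 0.08 for *Fzd3*, -0.08 to 0.15 for *Fzd6*, -0.04 to 0.05 for *Fzd8*, 0 to 0.15 for *Fzd9*, -0.02 to 0.20 for *Lrp5*, -0.04 to 0.04 for *Ryk*, -0.01 to 0.76 for *Wnt10a*, -0.28 to 0.31 for *Wnt16*, -0.28 to 0.18 for *Wnt3* and -0.09 to 0.12 for *Wnt5b*; the cause was not tested. The replicate block gave 2 lower and 2 higher members unadjusted (1068 and 1002 of 15600 genes), 0 adjusted, a median of 0.03 and *Ryk* at 0. To look for pairs, each gene's log2 level was taken as its deviation from the mean of its genotype. These deviations, not the whole profiles, correlated at -0.101, -0.528 and -0.0686 between same-numbered libraries. Of the 3 pairs, 0 correlated best with their own number. Deviations within a genotype sum to 0, which limits the signs that such correlations can take. These values give no sign of a pairing by number, but 3 pairs are too few to decide whether the libraries were paired. The depth of 8193651 to 12080044 counts left 10 members untested.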
